A study of Mus musculus with 12 samples.

Results

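The cytosolic ribosome of mammalian cells is built from ribosomal RNA and a large set of proteins, most of them encoded by genes named Rpl (large subunit) or Rps (small subunit). Here these genes were followed in mouse bone marrow derived macrophages exposed to tunicamycin, to lipopolysaccharide (LPS) or to both. Members were the rows of the deposited expression table whose symbol is Rpl or Rps followed by a digit, or Rplp0, Rplp1, Rplp2 or Rpsa, leaving out the S6 kinase genes, Rps19bp genes and symbols marked as pseudogenes. Of 87 such symbols, 84 reached at least 1 FPKM (fragments per kilobase of transcript, scaled to the library's mapped fragments) in at least 3 libraries, 50 of the large and 34 of the small subunit, among 10311 genes that met the same minimum out of 24346 in the table. Most of them were abundant, with 74 of the 84 at 100 FPKM or more in control cells.

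The study sequenced RNA, with total RNA as the labelled molecule, from 12 libraries of wild-type cells grown for 7 days with M-CSF and 10% serum. M-CSF, macrophage colony-stimulating factor, drives marrow precursors to become macrophages. Control cells had neither agent. LPS cells had 1 ng/ml LPS, the endotoxin of Gram-negative bacteria and a ligand of Toll-like receptor signalling, for 3 h. Tm cells had tunicamycin at 5 ug/ml, an inhibitor of N-linked glycosylation that causes endoplasmic reticulum (ER) stress, and Tm_LPS cells had the same tunicamycin for 3 h before LPS at 1 ng/ml for 3 h. The labels give a 3 h pretreatment for the Tm group and do not say how long those cells were kept before RNA was taken. Each group had 3 libraries. The labels do not tie them to separate mice or dishes. The p-values therefore reflect library-to-library spread only, and that spread may be technical.

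Ribosomal protein mRNAs are among the most abundant mRNAs of a cell, and their proteins are made in nearly equal amounts. In mammals most of these mRNAs start with a C followed by a run of pyrimidines, the 5′ terminal oligopyrimidine (TOP) tract, through which TOR signalling and the RNA-binding protein Larp1 control their translation and stability. In ER stress, phosphorylation of eIF2alpha lowers translation initiation in general. RNA levels, measured here, do not show how much of an mRNA is translated.

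The starts of 9 members are shown first, because the TOP tract is the feature this gene family is best known for. RefSeq promoters (GRCm38.p6) matched 63 of the 84 members. A tract was searched on the gene's strand as a C followed by at least 4 pyrimidines, with the C within 5 bases of the annotated start. Such a tract stood there in 30 of 63 members (47.6%), against 21.2% of all 27025 genes of the promoter table. Within 50 bases of the start the share was 61 of 63 (96.8%) for members and 79.7% for all genes. The windows below run from 10 bases before the annotated start, with the tract in capitals where 1 was found near the start. Where several C bases qualified, the capitals begin at the one nearest the annotated start. In the first 5 that C was the annotated start itself, and the pyrimidine run reached upstream of it as well.
Rpl38, chr11:114668570-114668599, plus strand: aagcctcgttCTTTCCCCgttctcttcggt
Rps6, chr4:86857348-86857377, minus strand: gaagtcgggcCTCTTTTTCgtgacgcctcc
Rpl28, chr7:4792955-4792984, plus strand: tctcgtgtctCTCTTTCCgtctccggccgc
Rpl35, chr2:39005112-39005141, minus strand: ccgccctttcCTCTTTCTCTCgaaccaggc
Rps18, chr17:33955646-33955675, minus strand: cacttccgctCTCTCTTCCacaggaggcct
Rps2, chr17:24720053-24720082, plus strand: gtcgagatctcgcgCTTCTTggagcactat
Rps15, chr10:80292421-80292450, plus strand: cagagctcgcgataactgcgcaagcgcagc
Rpl37a, chr1:72711250-72711279, plus strand: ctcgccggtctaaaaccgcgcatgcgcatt
Rplp0, chr5:115559457-115559486, plus strand: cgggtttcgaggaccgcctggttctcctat

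In Rps2 the tract began a few bases downstream of the annotated start. No such tract began within 5 bases of the annotated starts of Rps15, Rpl37a and Rplp0. All of them had one within 50 bases, as did 79.7% of all genes. With tunicamycin the first pair of these genes fell more than any other member, and Rplp0 did not pass the test, as described below.

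Levels of the members were high in every group. The median member stood at 413 FPKM in control, 406 in LPS, 266 in Tm and 312 in Tm_LPS cells, and 68 of the 84 members reached 100 FPKM in Tm cells. FPKM is scaled by transcript length. Many members share sequence with other genes, as described below, and how such reads were assigned is not given. The order of members by level is therefore approximate. Rpl41, which encodes a very short peptide of the large subunit, was the highest member over all libraries. It stood at 1376, 1544 and 1381 FPKM in control, 1621, 1360 and 1439 in LPS, 918, 916 and 909 in Tm, and 1080, 1014 and 1186 in Tm_LPS libraries. All Tm and Tm_LPS libraries were below all control and LPS libraries for this gene. Rps19, Rps18 and Rps2 followed with means over the 12 libraries of 1108, 1089 and 1002 FPKM.

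At the low end, Rps4l lay between 2.25 and 6.63 FPKM, and Rpl37rt, a retrogene symbol, between 0 and 1.90 FPKM, which placed it just inside the minimum. Just outside was Rpl39l, a paralog of Rpl39, which reached 1 FPKM in only 2 libraries (1.78 in LPS replicate 3 and 1.84 in Tm_LPS replicate 3). Rpl10l and Rpl3l, paralogs known from testis and muscle, were listed at 0 in all libraries.

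Ribosomal protein genes as a group stood lowest in tunicamycin cells. The members' summed FPKM was 5.82%, 6.48% and 5.94% of the library's total in control, 5.91%, 5.40% and 5.27% in LPS, 4.97%, 4.80% and 4.73% in Tm, and 5.01%, 4.89% and 5.21% in Tm_LPS libraries. No Tm or Tm_LPS library reached the lowest control or LPS library. These are shares of each library's RNA, so a fall in share and a change in the rest of the RNA per cell cannot be told apart. Measured as the median deviation of the members from their own means over the 12 libraries (log2 scale), control libraries stood at 0.10, 0.35 and 0.15, LPS libraries at 0.30, 0.15 and 0.10, Tm libraries at -0.29, -0.31 and -0.31, and Tm_LPS libraries at 0.02, -0.18 and -0.02. Within groups the members moved together. Control replicate 2 was the highest control library for 77 of 84 members, LPS replicate 1 the highest LPS library for 70, and Tm_LPS replicate 2 the lowest Tm_LPS library for 72. The members are therefore not independent observations of a treatment.

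**Figure D1:**
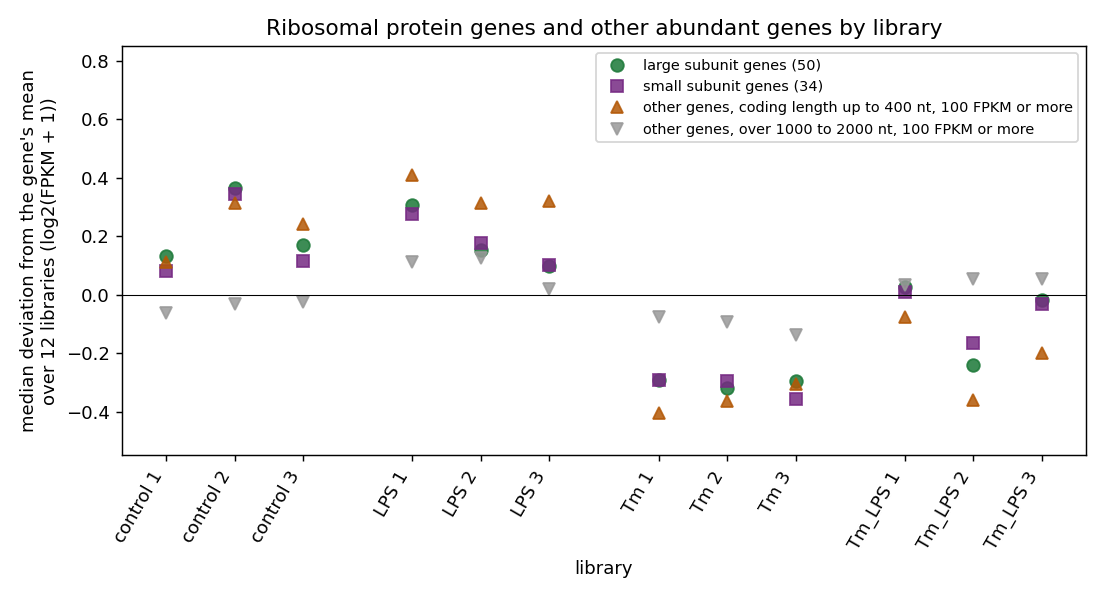
Median deviation from the gene's mean over 12 libraries on the log2(FPKM + 1) scale, for large subunit genes (circles), small subunit genes (squares) and other genes of at least 100 FPKM with a short (upward triangles) or longer (downward triangles) coding sequence, in each library. Both subunits lie at -0.29 or lower in the 3 Tm libraries and at 0.08 or higher in the control and LPS libraries, and the short other genes take a similar course.

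The balance between the subunits moved within a narrow range. The summed FPKM of the large subunit was 1.14, 1.11 and 1.13 times that of the small subunit in control, 1.14, 1.12 and 1.14 in LPS, 1.16, 1.16 and 1.16 in Tm, and 1.14, 1.12 and 1.16 in Tm_LPS libraries. The Tm libraries were above all control libraries in this ratio, by 1.16 ± 0.00361 against 1.13 ± 0.0123 (SD, n = 3 each). An exact two-sided permutation test gave p = 0.1, the smallest that 3 libraries against 3 can give. Rps27 and its retrogene, described below, enter the small subunit sum together.

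With LPS alone no member passed the test. With limma on log2(FPKM + 1), 0 of 84 members were higher and 0 lower at an adjusted p under 0.05, where 10.5% of all genes tested were higher and 7.86% lower. At an unadjusted p under 0.05, 1 member was higher and 0 lower. Here and below, shares of all genes are at the adjusted threshold, and none is given at an unadjusted p. The median log2 difference was -0.02 for both the large and the small subunit, against 0.00 over all genes. Rpl7l1, a paralog of Rpl7 that acts in ribosome assembly, had the smallest p of the named members. It stood at 50.1, 47.5 and 51.9 FPKM in control and 66.1, 54.5 and 68.9 in LPS libraries, which do not overlap, with a log2 difference of 0.33 (SE 0.12, adjusted p = 0.068). After quantile normalization, which gives every library the same distribution, 30 members were lower with LPS and none was higher, with a median of -0.20. Among all genes 9.71% were then lower and 8.95% higher, with a median of -0.07.

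Tunicamycin alone was followed by lower levels of most members. Of 84 members 65 fell and 0 rose, while 16.6% of all genes tested fell and 17.9% rose. At an unadjusted p under 0.05, 0 members were higher and 67 lower, with no share of all genes given at that threshold. The median log2 difference was -0.56 for the large subunit (37 of 50 fell) and -0.47 for the small subunit (28 of 34 fell), against 0.03 over all genes. Single genes ran from -1.42 to 0.06 in the large subunit and, leaving aside Rps27, from -1.60 to 0.12 in the small subunit, and the subunits were not compared with each other by a test. Quantile normalization left 45 falls and gave 5 rises, beside 16.8% and 16.9% of all genes.

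Rps15, a small subunit protein near the site where transfer RNA enters, fell most. It stood at 383, 478 and 415 FPKM in control, 420.2, 393 and 368 in LPS, 133, 145 and 140.1 in Tm, and 203, 201 and 209.7 in Tm_LPS libraries. Every Tm and Tm_LPS library lay below every control and LPS library, and the Tm_LPS libraries lay above the Tm libraries. The log2 difference of Tm against control was -1.60 (SE 0.09, adjusted p = 1.6e-09), a 3.03-fold lower level of FPKM + 1. The gene lies on chromosome 10 from 80292453 to 80294114 (GRCm38, GENCODE M21, plus strand).

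Rpl37a, a zinc finger protein of the large subunit encoded on chromosome 1 from 72711290 to 72713813, came next. Its levels were 519, 679.5 and 571 FPKM in control, 652, 554 and 592 in LPS, 229.6, 214 and 213 in Tm, and 249, 217 and 239 in Tm_LPS libraries. The log2 difference was -1.42 (SE 0.10, adjusted p = 2.38e-08) for Tm against control. Here the Tm_LPS libraries overlapped the Tm libraries.

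Rpl37 (log2 difference -1.11), Rpl24 (-1.10), Rpl21 (-1.05) and Rps28 (-1.04) completed the 6 largest falls. Rps28, which lines the channel where mRNA leaves the small subunit, stood at 741, 939 and 757 FPKM in control and 459.9, 352 and 371 in Tm libraries. Rpl24, which bridges the subunits, stood at 306, 378 and 288 FPKM in control and 151, 146 and 150.3 in Tm libraries. For both genes the groups do not overlap. Rpl38, which has a TOP tract at its annotated start, fell about as far as Rps28, by 1.03 on the log2 scale.

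**Figure D2:**
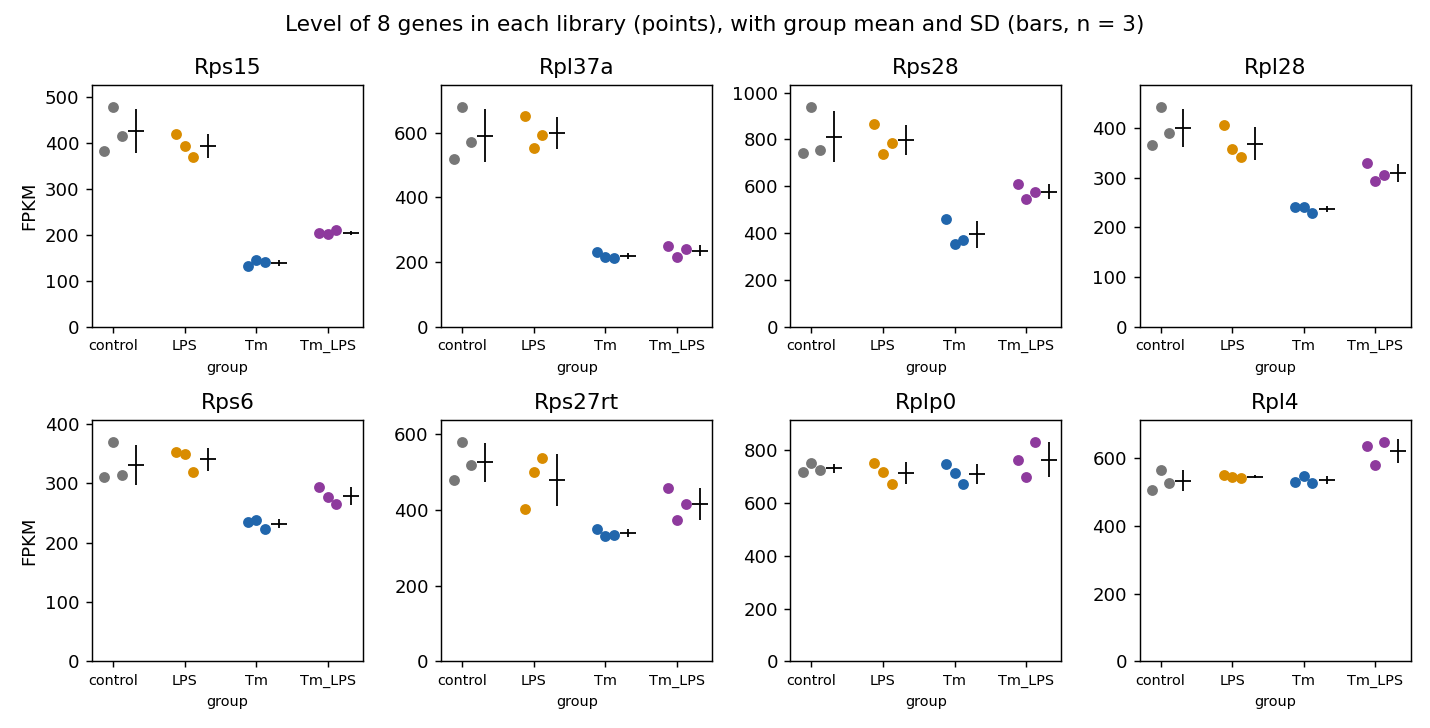
FPKM (vertical axes from 0) of 8 members in each library of the 4 groups, with the group mean and SD (n = 3) as bars. Rps15, Rpl37a and Rps28 are lowest in Tm cells, Rps15, Rps28 and Rpl28 are higher in Tm_LPS than in Tm cells, and Rplp0 and Rpl4 have overlapping control and Tm libraries.

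Grouped by place in the ribosome, the members form sets of 2 to 8 genes, which were not compared with each other by a test. Counts in these sets stand beside the 16.6% of all genes tested that fell with tunicamycin. The acidic stalk recruits elongation factors and consists of Rplp0, Rplp1 and Rplp2. Rplp0 stood at 718, 752 and 724 FPKM in control and 747, 714 and 670.4 in Tm libraries, with a log2 difference of -0.04 (SE 0.08, adjusted p = 0.74). Rplp1 stood at a log2 difference of 0.06 (SE 0.10) and also did not pass, but it passed as higher after quantile normalization (0.37, adjusted p = 0.0036). Rplp2 fell by 0.42 (SE 0.10, adjusted p = 0.0042), from 506, 567 and 545 to 451, 382 and 381 FPKM. Thus 1 of the 3 stalk genes passed, and the 3 estimates were not compared with each other by a test.

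Rpl5 and Rpl11 bind 5S ribosomal RNA together and, when free, restrain Mdm2 and so stabilise p53. Rpl5 stood at 207, 216 and 219 FPKM in control and 218, 201 and 200.4 in Tm libraries, a log2 difference of -0.05 (SE 0.09, adjusted p = 0.69). Rpl11 stood at 293, 358 and 314 FPKM in control and 147, 159.6 and 181 in Tm libraries, a fall of 0.98 (SE 0.15, adjusted p = 7.8e-05). The Rpl5 groups overlap and those of Rpl11 do not. Rpl5 passed in the other direction after quantile normalization (log2 difference 0.25, adjusted p = 0.020).

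Among proteins around the catalytic centre, Rpl10 fell by 0.34 (SE 0.08, adjusted p = 0.0035) and Rpl8 by 0.36 (SE 0.09, adjusted p = 0.0056), while Rpl3 had a log2 difference of 0.00 (SE 0.09). Rpl3 stood at 544, 640 and 556 FPKM in control and 626, 549.6 and 567 in Tm libraries, which overlap. After quantile normalization it passed as higher (0.30, adjusted p = 0.0042). Of 8 proteins that line the peptide tunnel or its exit, 5 fell and 0 rose. Rpl39, inside the tunnel, fell by 0.91 (SE 0.09), from 414, 494 and 441 to 256, 226 and 234 FPKM. Rpl4, whose long loop narrows the tunnel, stood at 505, 565 and 526 FPKM in control and 529, 547 and 526 in Tm libraries (log2 difference 0.01, SE 0.08).

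In the small subunit, Rps2, Rps3 and Rps9 surround the entry of the mRNA channel, and 1 of the 3 fell. That was Rps3, by 0.31 (SE 0.09, adjusted p = 0.017), from 291, 331 and 306 to 267, 243 and 241 FPKM. Rps2 stood at 1026, 1059 and 1030 FPKM in control and 1057, 963 and 941 in Tm libraries, with a log2 difference of -0.07 (SE 0.08). Rps14, Rps26 and Rps28, at the mRNA exit, fell by 0.52, 0.70 and 1.04. Rps2, Rps3, Rps10 and Rps20 carry the ubiquitin marks placed on stalled ribosomes, and 3 of these 4 fell, Rps10 furthest with 0.84. Rps6, the substrate of S6 kinase, fell by 0.51 (SE 0.09, adjusted p = 0.00032), from 310.3, 370.4 and 314 to 235, 239 and 223 FPKM.

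Rps27a, which is made as a fusion with ubiquitin, fell by 0.27 (SE 0.08, adjusted p = 0.019). Rps4x, the X-linked form of Rps4, fell by 0.62 (SE 0.10). Rpsa, which doubles as a laminin receptor, had a log2 difference of -0.13 (SE 0.09, adjusted p = 0.30).

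Of 7 kept members whose symbol marks a paralog or retrogene by an added l, al or rt, 5 fell with tunicamycin and 0 rose, with a median of -0.57, and the other 77 had 60 falls and a median of -0.51. In Tm_LPS against Tm 0 of the 7 and 20 of the 77 rose, and the interaction described below had medians of 0.03 and 0.23. Of all genes 16.6% fell with tunicamycin and 8.69% rose in Tm_LPS against Tm, and 7 genes are few to set beside such a share. The 2 sets of members were not compared by a test. Rpl22 stood at 20.4, 22.3 and 21.1 FPKM in control and 17.5, 15.8 and 17.2 in Tm libraries (log2 difference -0.32, SE 0.15, adjusted p = 0.12). Its paralog Rpl22l1 stood at 41.8, 73.6 and 52.3 FPKM in control and 34.3, 33.1 and 31.6 in Tm libraries, and fell by 0.70 (SE 0.16, adjusted p = 0.0023). Rpl36a fell by 0.88 (SE 0.15) and Rpl36al by 0.38 (SE 0.12). Rpl7l1 fell by 0.57 (SE 0.12, adjusted p = 0.0015). Rps27l, a p53 target in other cells, fell by 0.60 (SE 0.10, adjusted p = 0.00030), from 573, 677 and 609.8 to 411, 375 and 437 FPKM.

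**Figure D3:**
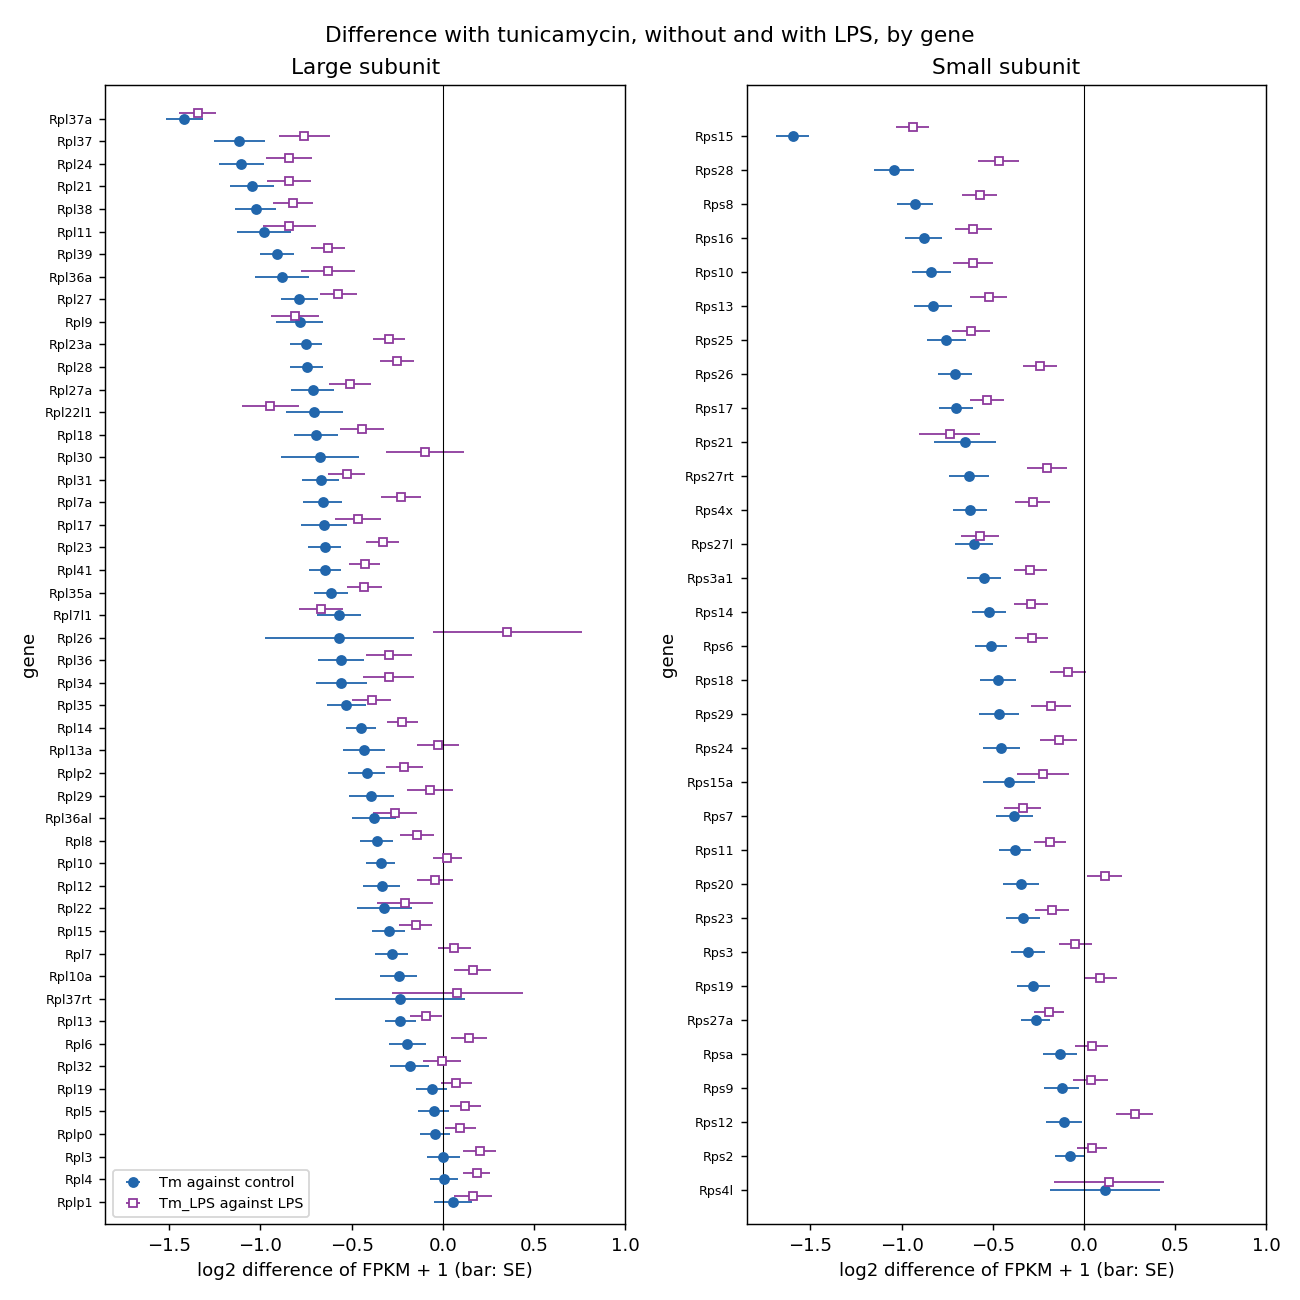
Log2 difference of FPKM + 1 with its SE for each member of the large (left) and small (right) subunit, for Tm against control (filled circles) and Tm_LPS against LPS (open squares), ordered by the first. Rps27 is left out for its erratic level, and 2 other members are not drawn. Rps15 at -1.60 and Rpl37a at -1.42 lie furthest left, and the Tm_LPS differences lie closer to 0 for most members.

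The fall with tunicamycin went along with coding length, in members and in other genes alike. Members with a coding sequence of up to 400 nt had a median log2 difference of -0.61 (n = 29), those of over 400 to 600 nt -0.65 (n = 30), those of over 600 to 1000 nt -0.34 (n = 21), and the longest pair, Rpl3 and Rpl4, 0.01. Other genes of at least 100 FPKM had medians of -0.57 (n = 136), -0.33 (n = 154), -0.19 (n = 236) and -0.03 (n = 269) in the same classes. Of these other abundant genes 69.9% fell in the shortest class and 27.9% in the over 1000 to 2000 nt class, while 86.2% of members in the shortest class fell. Across 82 members with a coding length, Spearman's rho between length and difference was 0.41, and across 864 other abundant genes 0.38; these are genes of the same libraries and not independent.

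Per library, the other abundant genes of up to 400 nt had median deviations of 0.11, 0.31 and 0.24 in control, 0.41, 0.31 and 0.32 in LPS, -0.41, -0.36 and -0.30 in Tm, and -0.08, -0.36 and -0.20 in Tm_LPS libraries. When each library was centred on the other genes of the same length class, 43 of 82 members were lower with tunicamycin and 2 higher, beside 16.6% and 17.1% of all genes. When only other genes of at least 100 FPKM served for this, 29 were lower and 5 higher, beside 11.8% and 23.2% of all genes. The median was then -0.12 for the large and -0.07 for the small subunit, and 0.132 over all genes. Relative to the median of all genes the subunits stood at -0.254 and -0.205, and in the first centring at -0.268 and -0.241. These centrings were chosen after the data had been seen. Rps15 stayed at -1.25 (adjusted p = 1.76e-09) and Rpl37a at -0.84 (adjusted p = 2.74e-07) in the stricter of them, Rpl11 at -0.63 and Rps28 at -0.46, whereas Rpl41 was at -0.07 (adjusted p = 0.52) and Rps3 at -0.13 (adjusted p = 0.20). Rplp1 passed as higher in both centrings, at 0.48 (adjusted p = 0.00059) and in the stricter at 0.63 (adjusted p = 2.92e-05). Coding length and treatment move together here, and the part of length in the members' fall was not tested.

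**Figure D4:**
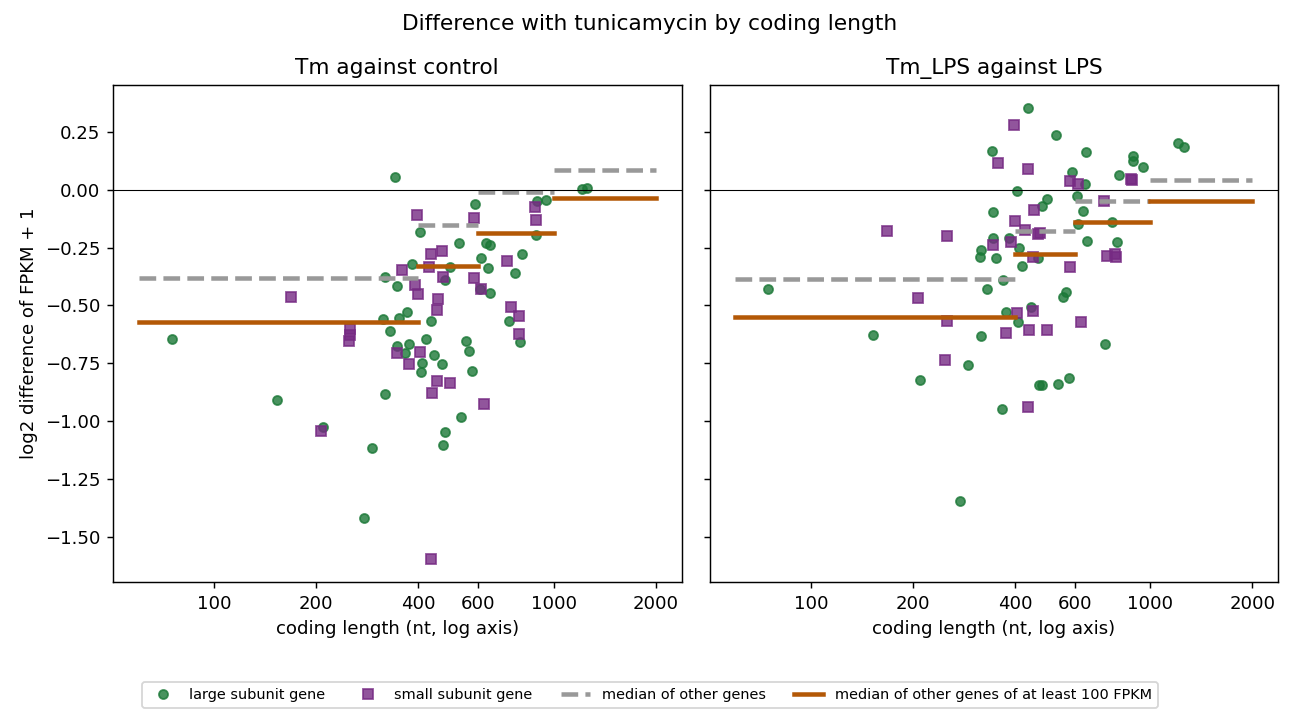
Log2 difference of FPKM + 1 against coding length (log axis) for members of the large (circles) and small (squares) subunit, with the median of other genes per length class (dashed) and of other genes of at least 100 FPKM (solid), for Tm against control (left) and Tm_LPS against LPS (right). On the left the members' class medians are -0.61, -0.65 and -0.34 and those of other abundant genes -0.57, -0.33 and -0.19.

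Of 30 members with a TOP tract within 5 bases of the annotated start 26 (86.7%) fell with tunicamycin (median -0.54), and of 33 without one there 23 (69.7%) fell (median -0.57). In Tm_LPS against LPS 40% of the former and 54.5% of the latter fell. Of all genes 16.6% fell with tunicamycin alone and 15.1% in Tm_LPS against LPS. The sets with and without a tract were not compared by a test. The counts describe annotated starts, which can differ from the starts used in these cells.

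Many ribosomal protein mRNAs have near-identical pseudogene copies, so reads can be assigned to the wrong row. Of 82 members with a coding sequence, 70 shared over 50% of their coding 50-mers with another annotated gene. Of 12 members that shared at most 50%, 8 fell and 0 rose, with a median of -0.37, and of the 70 others 57 fell with a median of -0.55, where 16.6% of all genes fell. Rps15 is among the 12, with 43.3% shared.

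The row of Rps27 was erratic. It read 2.06, 0.21 and 2.05 FPKM in control, 126, 1.13 and 0.732 in LPS, 3.19, 3.65 and 5.27 in Tm, and 2.86, 3.05 and 4.89 in Tm_LPS libraries, so LPS replicate 1 alone was high. All of its coding 50-mers occur in the retrogene Rps27rt on chromosome 9, whose row read 478.7, 581 and 519.7 FPKM in control, 403.1, 499.5 and 536.7 in LPS, 350.8, 332.9 and 333.3 in Tm, and 458.7, 372.9 and 415.2 in Tm_LPS libraries. Summed, the pair gave 481, 581 and 522 FPKM in control, 529, 501 and 537 in LPS, 354, 337 and 339 in Tm, and 462, 376 and 420.1 in Tm_LPS libraries. Reads of the parent gene and the retrogene cannot be told apart in this table. Rps27 passed in no comparison (log2 difference -0.78, SE 1.05, for Tm_LPS against LPS), and without LPS replicate 1 its difference there was 1.23 (adjusted p = 0.028). Rpl26, which shares 74.1% of its coding 50-mers with Gm15772, was also uneven, with 61.3, 157 and 26.5 FPKM in control libraries. Rpl10, all of whose coding 50-mers are shared, was even, with 954.7, 1068 and 966.2 FPKM there. The part of shared sequence in the uneven rows was not tested.

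With LPS present, tunicamycin was again followed by lower levels of members, although the medians turned above 0 after centring on abundant genes of the same length class. That centring put the median of all genes at 0.079, and the subunits at 0.05 and 0.04 relative to it. In Tm_LPS against LPS 36 of 84 members fell and 1 rose, where 15.1% of all genes tested fell and 13.8% rose. At an unadjusted p under 0.05, 4 members were higher and 43 lower, with no share of all genes given at that threshold. The median was -0.24 for the large subunit (21 of 50 fell) and -0.23 for the small subunit (15 of 34 fell, 1 rose), against 0.00 over all genes. This comparison and Tm against control share no library. The 36 members that fell here were 100% of this list and 55.4% of the 65 that fell without LPS. Across the 84 members Pearson's r between both differences was 0.67 and across all 10311 genes 0.66, given as a description of genes in the same libraries.

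Rpl37a fell most, by 1.34 (SE 0.10, adjusted p = 6.7e-08). Rpl22l1 came next and fell by 0.95 (SE 0.16, adjusted p = 0.00027), from 67.6, 64.9 and 73.4 to 39.0, 33.1 and 33.5 FPKM. Rps15 fell by 0.94 (SE 0.09, adjusted p = 1.2e-06). Rpl21, Rpl24 and Rpl11 each fell by 0.84. Rps12, which was 212, 239 and 218 FPKM in control, 247, 205 and 195 in LPS, 222, 196 and 202 in Tm and 269, 240.1 and 275 in Tm_LPS libraries, was the member that rose, by 0.28 (SE 0.10, adjusted p = 0.047). Its LPS and Tm_LPS libraries overlap, and its adjusted p ran from 1.59e-06 to 0.174 over the other settings.

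Among members that did not pass with tunicamycin alone, Rpl4 stood at 549.7, 542 and 540.4 FPKM in LPS and 633, 579 and 647 in Tm_LPS libraries, a log2 difference of 0.19 (SE 0.08, adjusted p = 0.078). Rpl3 had 0.20 (SE 0.09, adjusted p = 0.10) and Rplp0 0.10 (SE 0.08, adjusted p = 0.42), and both passed as higher after quantile normalization (0.33 with adjusted p = 0.0032 and 0.23 with adjusted p = 0.018). The counts and the direction of the medians depended on the scaling here. After quantile normalization 26 members were lower and 15 higher, with every library brought to the same sum 30 and 6, after centring on other genes of the length class 17 and 8, and after centring on the abundant ones 13 and 26. The shares of all genes lower and higher were, in the same order, 14.2% and 13.1%, 11.8% and 16.7%, 14.3% and 13.5%, and 11.2% and 17.5%. The class medians of the other abundant genes in this comparison were -0.55, -0.28 and -0.14 from the shortest class up, beside -0.39, -0.31 and -0.05 for members.

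LPS given after tunicamycin was followed by higher levels of some members, a direction that turned in the medians after quantile normalization. Because the labels do not say how long Tm cells were kept, LPS and time since tunicamycin cannot be told apart in this comparison. In Tm_LPS against Tm 20 of 84 members rose and 0 fell, where 8.69% of all genes tested rose and 7% fell. At an unadjusted p under 0.05, 43 members were higher and 0 lower, with no share of all genes given at that threshold. The medians were 0.21 for the large subunit (9 of 50 rose) and 0.24 for the small subunit (11 of 34 rose), against -0.01 over all genes. Rps28 rose by 0.55 (SE 0.11, adjusted p = 0.0024), from 459.9, 352 and 371 to 609, 545 and 574 FPKM, and Rps15 by 0.55 (SE 0.09, adjusted p = 0.00043). Rpl23a rose by 0.42, Rps29 by 0.41 and Rps26 by 0.40. Rps28, Rps15, Rpl23a and Rps26 in Tm_LPS libraries remained below all their control libraries.

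This rise rested on the scaling, and the number of its calls also on single libraries. It comprised 1 rise and 2 falls after quantile normalization, with medians of -0.02 and -0.04 for the subunits (0.04 and 0.02 relative to the median of all genes). It comprised 2 rises when every library had the same sum, a scaling that shifted the median of all genes to -0.17 and left the subunits at 0.21 and 0.23 relative to it. Among all genes 7.46% rose and 9.15% fell after quantile normalization, and 5.78% rose with the same sum. Of the 5 genes just named, Rps15 passed after quantile normalization (0.37, adjusted p = 0.0023), while Rps28 (0.18, adjusted p = 0.21) and the other 3 did not. The count was 32 without Tm_LPS replicate 2, 9 without Tm_LPS replicate 1, 7 without Tm_LPS replicate 3, 7 without Tm replicate 2 and 6 without Tm replicate 3. The share of all genes that rose was, in the same order, 8.17%, 7.41%, 7.2%, 6.38% and 6.44%. With each library left out in turn, the medians stayed at 0.186 to 0.277 for the large and 0.209 to 0.308 for the small subunit, with 0 falls.

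The last comparison asked whether the LPS effect differed with and without tunicamycin. The LPS effect with tunicamycin is Tm_LPS against Tm, which cannot be told apart from time since tunicamycin. For this interaction 2 of 84 members passed, both higher, where 1.41% of all genes tested were higher and 1.96% lower. At an unadjusted p under 0.05, 22 members were higher and 0 lower, with no share of all genes given at that threshold. Rps15 had an interaction of 0.66 (SE 0.13, adjusted p = 0.0072), made of an LPS difference of -0.11 without and 0.55 with tunicamycin. Rpl28, a large subunit protein, had 0.49 (SE 0.13, adjusted p = 0.048). Its levels were 367, 443 and 391 FPKM in control, 406, 358 and 342 in LPS, 242, 241 and 229.5 in Tm, and 329, 293 and 305 in Tm_LPS libraries. The LPS libraries overlapped the control libraries, and the Tm_LPS libraries lay above the Tm libraries. Rpl28 lost its call in 12 of 22 other settings, with an adjusted p from 0.0103 to 0.123, and Rps15 in 0 of 23, from 0.0014 to 0.025. The interaction estimate was above 0 in 79 of 84 members, with a median of 0.22, against -0.03 over all genes. Because the members rise and fall together within libraries, this is 1 observation on 12 libraries.

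Genes that work with the ribosomal proteins are set here beside the 17.9% of all genes tested that rose and the 16.6% that fell with tunicamycin. Fau and Gnb2l1 encode ribosomal proteins outside the symbol rule. Fau fell with tunicamycin by 0.78 (SE 0.13, adjusted p = 0.00024), while Gnb2l1 (-0.21) did not pass. Among 17 elongation factors and other mRNAs with TOP tracts, 5 (29.4%) fell and 0 rose with tunicamycin (median -0.27), with Eif3k, a subunit of initiation factor 3, at -0.94 and Eef1g, an elongation factor 1 subunit, at -0.53. In Tm_LPS against LPS 3 of the 17 (17.6%) fell and 2 (11.8%) rose, near the 15.1% and 13.8% of all genes. Among them were Eef2, the translocation factor, at 0.41 and Nap1l1, a histone chaperone, at -0.53.

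Ribosome assembly and ribosomal RNA synthesis genes moved in both directions, with 14 of 48 (29.2%) higher and 13 (27.1%) lower with tunicamycin (median -0.04). In Tm_LPS against LPS 8 (16.7%) were higher and 9 (18.8%) lower, beside 13.8% and 15.1% of all genes. Nop10, a small protein of the pseudouridylation complex, fell by 1.38 with tunicamycin, Polr1b, a subunit of RNA polymerase I, fell by 1.02, and Wdr75 rose by 1.07. With LPS alone 11 of the 48 (22.9%) rose and 0 fell, where 10.5% of all genes rose and 7.86% fell. Rrs1, a nucleolar assembly factor, rose most with 1.57 (SE 0.13, adjusted p = 1.1e-07). Members did not pass with LPS alone.

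Of 18 genes of TOR signalling and TOP mRNA control, 3 (16.7%) rose and 1 (5.56%) fell with tunicamycin, shares near or below those of all genes. Sesn2, a stress-induced inhibitor of TOR complex 1, rose by 2.55 (SE 0.15, adjusted p = 1.97e-09), Eif4ebp1, which restrains cap-dependent initiation, rose by 1.65 (SE 0.15), and Pdcd4 rose by 1.01 (SE 0.36, adjusted p = 0.039). Pdcd4 was low, at 0.951, 1.844 and 0.4076 FPKM in control and 3.935, 1.276 and 4.626 in Tm libraries, which overlap. Eif4e, the cap-binding protein, fell by 0.88 (SE 0.11, adjusted p = 1.5e-05). Larp1, which binds TOP tracts, had -0.66 (SE 0.30, adjusted p = 0.098) with tunicamycin and rose by 1.05 (SE 0.30, adjusted p = 0.024) in Tm_LPS against Tm. Its Tm libraries (11.15, 5.989 and 4.767 FPKM) and Tm_LPS libraries (20.1, 9.725 and 18.05 FPKM) overlap. Of 16 genes of stalled ribosome rescue, 3 (18.8%) rose and 2 (12.5%) fell with tunicamycin, again near the shares of all genes. Ascc3, a helicase that splits collided ribosomes, rose by 0.79. Usp10, which removes ubiquitin from small subunit proteins, and its partner G3bp1 fell by 0.74 and 0.56, and both rose in Tm_LPS against Tm, by 0.50 and 0.56. Zfp598, the ligase that marks collided ribosomes, rose by 1.06 in Tm_LPS against LPS.

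Nuclear-encoded mitochondrial genes offer a comparison. Of 77 mitochondrial ribosomal protein genes 20 (26%) fell and 13 (16.9%) rose with tunicamycin (median -0.11), where 16.6% of all genes fell and 17.9% rose. Of 82 nuclear respiratory chain and ATP synthase genes 45 (54.9%) fell and 3 (3.66%) rose (median -0.34). In Tm_LPS against LPS the latter had 42 falls (51.2%) and 3 rises (3.66%), where 15.1% of all genes fell and 13.8% rose. The median was -0.36, beside -0.23 for the cytosolic ribosomal protein members. In Tm_LPS against Tm 4 of the 82 respiratory genes (4.88%) rose, with a median of 0.08, beside 20 of 84 (23.8%) and 0.22 for the members and 8.69% of all genes. These counts and medians describe the lists and were not tested against each other.

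Markers of cell types were checked beside these results. The summed FPKM of 10 macrophage markers lay between 15720 and 24500 in the 12 libraries. With tunicamycin 4 of these 10 were lower and 1 higher. The sum of 8 neutrophil markers ran from 86.7 to 126 in control, 190 to 317 in LPS, 14.3 to 25.8 in Tm and 17.1 to 31.7 in Tm_LPS libraries, and 3 of the 5 tested fell with tunicamycin. Stromal markers summed to between 15.5 and 20.2 in control and 29.9 and 50.6 in Tm libraries, and 4 of 6 tested rose. T and NK, erythroid, mast and basophil, B and plasma and dendritic marker sums stayed below 4 FPKM, with Ms4a1, Ncr1, Klrb1c and Cpa3 among those listed at 0 in every library. The part of these shifts in the members' levels was not tested.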

How the data were processed

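The 12 RNA-seq libraries of macrophages, 3 per group, were used from 1 deposited table. Its FPKM values were made by the authors with Cufflinks 2.2.1, TopHat2 2.0.13, SAMtools 0.1.19 and Bowtie2 2.2.3 on mm10, per the submitters' processing notes; how multi-mapping reads were assigned, strand and annotation are not given in the sources used here. Without counts the depth per library is unknown. Summed FPKM ran from 561108 to 685010 per library, and Pearson's r within groups from 0.973 to 0.986. Genes with at least 1 FPKM in at least 3 libraries were fitted as log2(FPKM + 1) with limma 3.58.1 in R 4.3.3 (1 mean per group over all 12 libraries, trended moderation, Benjamini-Hochberg adjustment over 10311 genes, threshold 0.05), so a fold change understates that of low genes. The fit was tested on simulated data. Coding lengths and shared 50-mers came from GENCODE M21 (GRCm38, the build of mm10) and starts from RefSeq. Alternatives were pseudocount, filter, scaling, replicate block, contrast libraries only, each library left out, and members with pseudogenes left out.

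Named members were, per comparison, the 6 largest rises and falls that passed, a fixed list of 23 genes (1 of them, Rpl39l, did not reach the minimum), and those with an interaction. Genes described for their place in the ribosome, their sharing or their TOP tract were added after values were seen. Some genes that the rule or the lists hold are not reported here by name. Members and lists were chosen with earlier results of these data known.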

Additional observations from a re-analysis of the deposited data

Results flagged for a closer look

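Among the members, 2 had an LPS effect that differed between cells with and without tunicamycin by the interaction test in limma. With tunicamycin, LPS and time since tunicamycin cannot be told apart, because the labels do not say how long Tm cells were kept. Rps15 had an LPS effect 0.66 higher on the log2 scale with tunicamycin than without (0.658, SE 0.129), and Rpl28 had one 0.49 higher (0.495, SE 0.130). For both genes all 3 Tm_LPS libraries were above all 3 Tm libraries, while LPS and control libraries overlapped. The call of Rps15 held in all 23 other settings, whereas that of Rpl28 was lost in 12 of 22, the replicate block, pseudocount 0.1 and no filter among them (adjusted p up to 0.123).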

How the results depend on the processing

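Deviations from the group means correlated at -0.039 to 0.095 between same-numbered libraries of different groups, and at -0.11 to 0.046 between differently numbered ones. Whether a replicate number marks a pairing cannot be told from these values, and the labels do not say. With the replicate block the interaction had 1 member and Tm_LPS against LPS 0 rises, and the other counts stayed within 1.5 times. Of all genes 1.41% were then higher in the interaction and 13.9% in Tm_LPS against LPS. The medians could not change, because every group holds the same replicate numbers and the block then leaves group differences as they are.

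Medians below are for the large and then the small subunit, and the cause of the changes between settings was not tested. Some settings also moved the median of all genes. In the order of comparisons below, it was -0.106, 0.154, 0.077 and -0.167 with the same sum. With centring on abundant genes it was -0.114, 0.132, 0.079 and -0.157, and with quantile normalization -0.07, -0.005, -0.003 and -0.059. In LPS against control, quantile normalization gave 30 falls with -0.193 and -0.224, the same sum in every library 3 falls with -0.14 and -0.144, and centring on abundant genes of the length class 4 falls. Of all genes 9.71%, 10.6% and 12.5% fell in these settings, in that order. In Tm against control, quantile normalization gave 5 rises with -0.356 and -0.248, the same sum -0.416 and -0.325, the contrast's libraries alone 1 rise, centring on the length class 2 rises and 43 falls with -0.257 and -0.231, and on its abundant genes 5 rises and 29 falls with -0.122 and -0.073. Of all genes 16.9%, 17.9%, 17.1% and 23.2% rose in the settings with rises, in that order, and 16.6% and 11.8% fell with the centrings. In Tm_LPS against LPS, rises numbered 0 without a filter and with the contrast's libraries alone, 2 with a 5 FPKM filter, 6 with the same sum, and 15 after quantile normalization with medians of -0.066 and -0.085. Of all genes 7.93%, 11.3%, 17.1%, 16.7% and 13.1% rose in these settings, in that order. In the same comparison, centring on the length class gave 8 rises and 17 falls with -0.02 and 0.016, and on its abundant genes 26 and 13 with 0.129 and 0.119. Of all genes 13.5% rose and 14.3% fell with the first centring, and 17.5% rose and 11.2% fell with the second. In Tm_LPS against Tm, rises numbered 8 without a filter, 11 with the contrast's libraries alone, 2 with the same sum (0.038 and 0.066) and 1, beside 2 falls, after quantile normalization (-0.015 and -0.042). Of all genes 5.1%, 7.14%, 5.78% and 7.46% rose in these settings, in that order, and 9.15% fell after quantile normalization. In the same comparison, centring gave 31 rises with the length class and 7 with its abundant genes (0.094 and 0.117), beside 9.41% and 6.11% of all genes. The interaction had 1 member with pseudocount 0.1 or no filter, 5 with a 5 FPKM filter, 6 after quantile normalization (small subunit 0.143), and 9 and 7 with the centrings. Of all genes 1.2%, 0.591%, 1.9%, 1.55%, 1.91% and 1.45% were higher in these settings, in that order. The 12 members with at most 50% of 50-mers shared had 8 falls with tunicamycin (large subunit -0.32), 4 falls and 0 rises in Tm_LPS against LPS, 2 rises in Tm_LPS against Tm and 1 in the interaction. The shares of all genes beside these were 16.6% lower, 15.1% lower and 13.8% higher, 8.69% higher and 1.41% higher.

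Leaving out each library in turn gave 52 to 66 falls and 0 to 1 rises in Tm against control, 27 to 38 falls and 0 to 4 rises in Tm_LPS against LPS, 6 to 32 rises in Tm_LPS against Tm, 1 to 5 members in the interaction and 0 to 1 rises in LPS against control. The shares of all genes moved as well. In Tm against control 13.4% to 17.3% fell and 13.8% to 18.5% rose. In Tm_LPS against LPS 11.9% to 15.4% fell and 10.5% to 14.1% rose. Genes that were higher made up 6.38% to 8.87% in Tm_LPS against Tm, 0.892% to 1.67% in the interaction and 8.41% to 10.8% in LPS against control. Of 46 results of named genes that passed, 19 passed under every alternative and 27 were lost under 1 or more. Of 83 that did not pass, 30 passed under 1 or more.

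Single genes turned in sign where either value passed. Quantile normalization gave Rpl41 -0.289 with LPS, Rpl5 0.245 and Rps3 0.027 with tunicamycin, and Rplp0 -0.225 in Tm_LPS against Tm. Centring on the length class gave Rpl36al 0.044 and Rplp2 0.004 with tunicamycin. Centring on abundant genes gave Rpl36al 0.201, Rplp2 0.161 and Rps27a 0.087 with tunicamycin, and Rpl36al 0.297, Rplp2 0.348, Rpl41 0.13 and Rps14 0.025 in Tm_LPS against LPS. Rps27 there ran from -1.866 (without LPS replicate 3) to 1.232 (without LPS replicate 1). Without counts, what depth limits is unknown.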
